A study of Saccharomyces cerevisiae with 55 samples.

Results

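The small subunit of the yeast ribosome is described here through 49 genes for its proteins, out of 6249 genes or probes on the arrays. They were chosen by name, as every gene whose symbol is RPS followed by a digit. There were 55 such symbols on the array, and 6 of them (RPS9A, RPS9B, RPS14A, RPS14B, RPS27A and RPS27B) were not analysed here. Of the 49 members, 42 form 21 pairs of paralogs with symbols that differ only in a final A or B, and 7 have no partner in the list (RPS2, RPS3, RPS12, RPS13, RPS15, RPS20 and RPS31). The members lie on 13 chromosomes, and all 49 were found in the yeast reference annotation.

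The small subunit holds the messenger RNA and reads its codons, and it is built from ribosomal RNA and many small proteins, most of them encoded in budding yeast by a pair of near-identical genes. Transcription of these genes is driven by Rap1, Fhl1 and Ifh1, depends on the TORC1 kinase complex that rapamycin inhibits, and is known to fall for a time when yeast meets stress. Kcs1, Vip1, Arg82 and Ipk1 are enzymes of inositol phosphate and inositol pyrophosphate synthesis. Rpd3 is a histone deacetylase and Snt1 is a subunit of the Set3 histone deacetylase complex.

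Total RNA of Saccharomyces cerevisiae of the W303 background, mating type a, was measured on 55 two-colour arrays, each with a mutant or treated RNA set against another RNA on the same array. The mutants were ipk1 (strain ACY237), kcs1/vip1 (ACY236), arg82 (ACY207), vip1 (ACY211), kcs1 (ACY209), rpd3 (ACY433) and snt1 (ACY591), which are null mutants made by homologous recombination, with Vip1D487A (ACY584) and Rpd3ibs (ACY614). Each mutant is 1 strain, and the wild type was ACY044. All cells were grown in rich medium (YEPD) to mid-log phase, and stresses were 0.375 M KCl, 0.4 mM H2O2, heat at 42 °C or 200 nM rapamycin, each for 20 min. In the text, log means mid-log growth without stress.

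By their labels 54 arrays fell into 27 groups. Each mutant was set against wild type in log growth ("log" groups) or with both strains in KCl ("KCl" groups), and kcs1/vip1 also with both strains in H2O2 or heat. Wild type with KCl, H2O2, heat or rapamycin was set against untreated wild type. The kcs1/vip1 strain with KCl or H2O2 was set against the same strain untreated, and with KCl and rapamycin together against the same strain in KCl alone. Of these groups 7 had 3 arrays, 13 had 2 and 7 had 1, and this number limits the precision.

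Every value below is a log2 ratio as deposited, of the mutant or treated RNA over the RNA it was set against, or a difference of such ratios. It is not a level, so nothing is said of how abundant a transcript was. A gene is said to have risen or fallen if its limma p-value, adjusted by Benjamini-Hochberg over all genes tested in that comparison, was below 0.05, and it was tested where each side had at least 2 values. The labels do not say that arrays of a group came from separate cultures, so p-values measure only the spread between these arrays. Nor can less of a transcript in each cell be told apart from fewer cells that make it. Whether the probes of near-identical paralogs each measure 1 gene was not tested. Where members at an unadjusted p below 0.05 are counted, the limma p-value before adjustment is meant. No share of all genes at that threshold is given beside these counts, so nothing is drawn from them.

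Some arrays stood apart before any result. On the second array labelled kcs1 in log growth, KCS1 had a log2 ratio of -0.30, against -5.29 on the first. Its IPK1 value was -2.87, and that of LEU2, a selectable marker gene, -2.5. The second arrays labelled ipk1, in log growth and in KCl, correlated with the others of their groups at only 0.35, 0.09 and 0.16 over all genes. They also lacked a value for KCS1, while no ipk1 array had one for IPK1, and their LEU2 values of -5.12 and -3.93 were near those of the other ipk1 arrays (-4.49, -3.83 and -3.76). On the H2O2 and heat arrays labelled kcs1/vip1 over wild type, LEU2 stood between 1.47 and 3.19, whereas on the 6 log and KCl arrays of that strain it stood between -4.41 and -3.97. The H2O2 arrays had no value for KCS1 or VIP1, as was also so for 3 of those 6, which does not go against their label. The heat array had none for KCS1 and -0.01 for VIP1. The arrays that went against their labels in at least 1 of these measures were thus the second kcs1 log array, the second ipk1 arrays in log growth and in KCl, and the kcs1/vip1 arrays in H2O2 and heat. Results that rest on them are given without them too, where other arrays are left.

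A value was present for all 49 members on 41 of the 55 arrays, and for fewer than 45 on 7. The 4 arrays of 1 slide had the fewest: 19 members on the first arg82 log array, 20 on the first vip1 log array, 28 on the first arg82 KCl array and 33 on the first vip1 KCl array. These were 38.8% to 67.3% of the members, while non-ribosomal genes had a value in 90.3% to 92.0% of cases on the same arrays. Large subunit ribosomal protein genes were also thinned there, to between 47 and 61 of 80. The same 15 members were missing on all 4 arrays. RPS12, RPS15 and RPS0B had the fewest values over the series, on 43, 45 and 47 of the 55 arrays.

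The median of the members on an array ran from -1.52 to 2.41 and was above 0 on 37 of 54 assigned arrays and below 0 on 17. The plot of members by array shows that this spread is wide within groups as well as between them. On the 3 wild type KCl arrays the medians were -1.52, -0.15 and 0.11. On the 3 kcs1/vip1 log arrays they were 0.89, -0.43 and -0.01, and on the 2 vip1 log arrays 2.41 and 1.12. The pooled SD of array medians within groups was 0.51, so a group whose median is nearer to 0 than this is within the usual spread of single arrays.

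**Figure D1:**
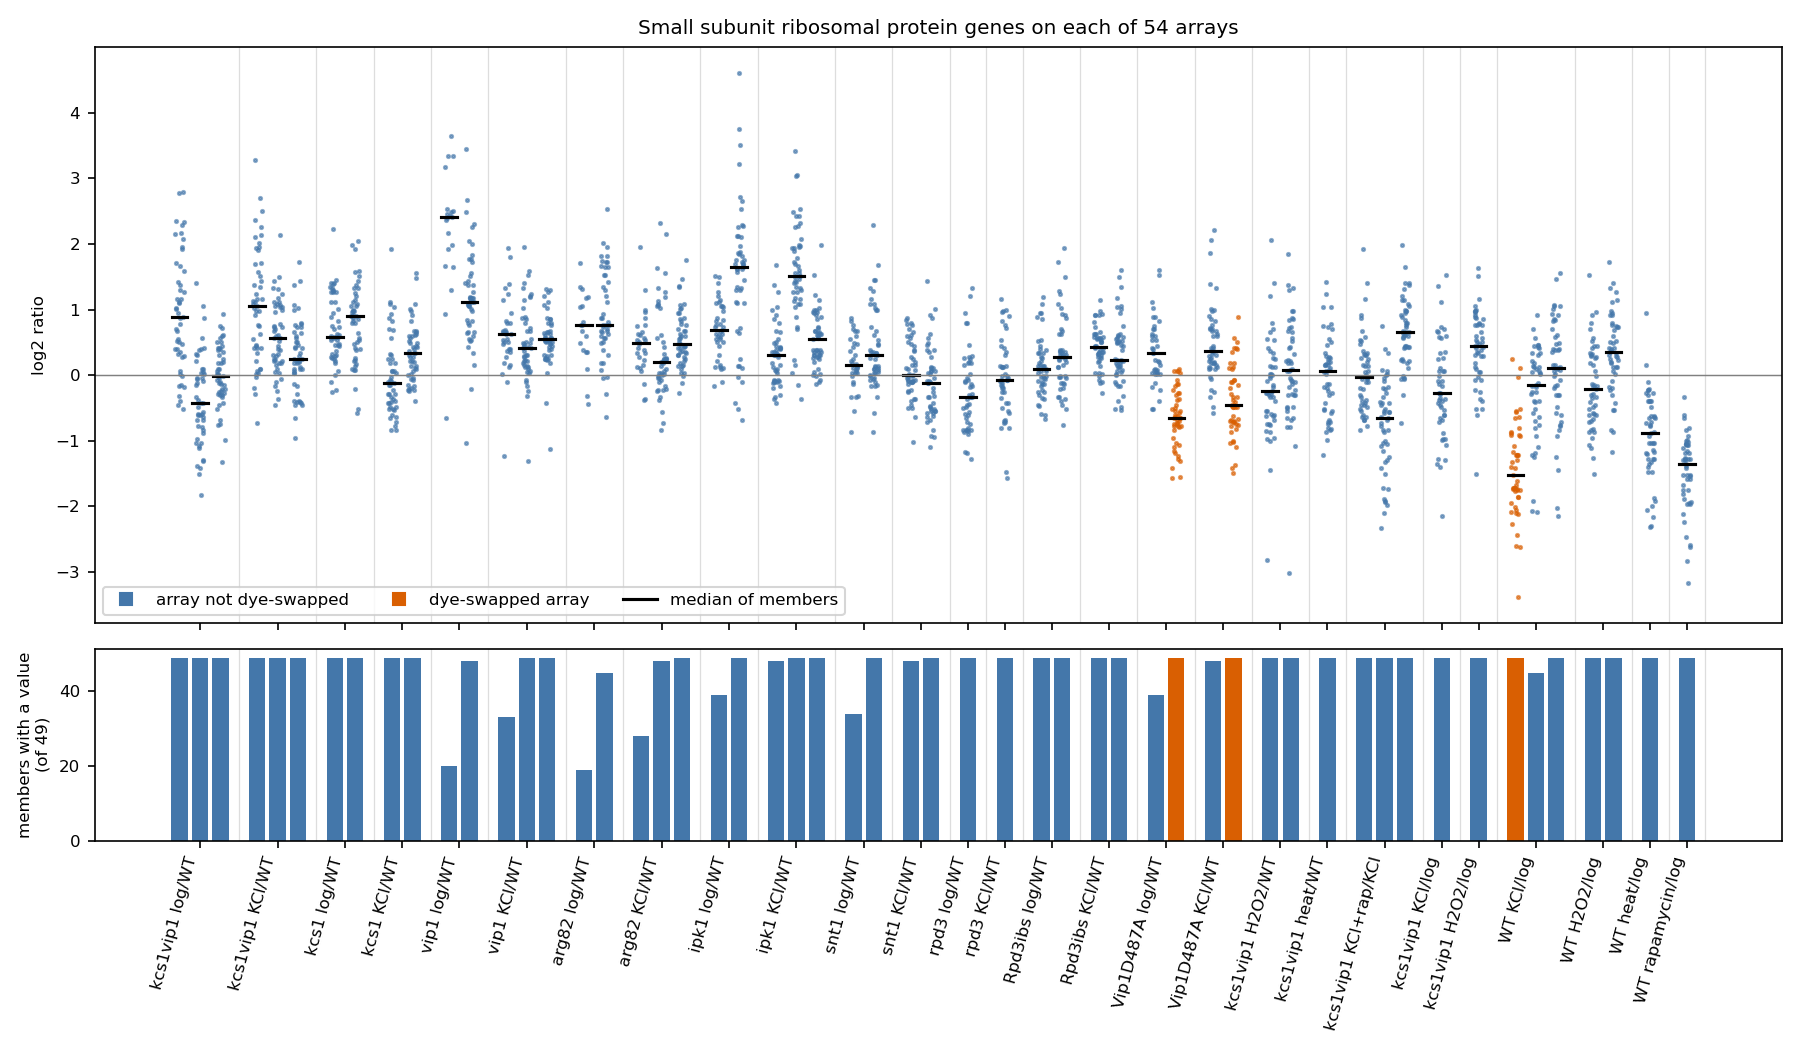
Log2 ratios of the small subunit ribosomal protein genes on each array, by group. Points are members (orange on dye swaps), the line is the array's median and the bars below count members with a value; array medians run from -1.52 (the dye-swapped wild type KCl array) to 2.41 (the first vip1 log array).

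By the labels, the mutant or treated RNA carried the cy5 dye on 51 of the 54 arrays and the cy3 dye on 3 dye swaps. These were the first wild type KCl array, the second Vip1D487A log array and the second Vip1D487A KCl array. With the signs as deposited, members were lower on the dye swap than on the other arrays of its group for 48 of 49 members in wild type KCl, 36 of 39 in Vip1D487A log and 39 of 48 in Vip1D487A KCl. Over all genes the shares lower on the swap were 49.1%, 51.8% and 47%. The median difference of the members, swap minus others, was -1.27 in wild type KCl, -0.91 in Vip1D487A log and -0.90 in Vip1D487A KCl, while that of all genes lay between -0.03 and 0.05. For large subunit genes it was -1.12, -0.80 and -0.95.

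The wild type KCl swap correlated at 0.89 and 0.91 with the other 2 arrays over all genes, so its deposited sign runs the same way as theirs. The Vip1D487A pairs correlated at only 0.02 in log growth and 0.15 in KCl, and the direction of those swaps is not settled. With their signs turned, 16 of 39 members were lower on the Vip1D487A log swap and 28 of 48 on the KCl swap, with median differences of 0.28 and -0.11, beside 48.8% and 49.9% of all genes. The lower values on a swap thus hold for wild type KCl, and for Vip1D487A only with the deposited signs.

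When a dye coefficient was fitted in the same model, 13 of 48 members stood above 0 and none below, against 275 above (4.88%) and 423 below (7.5%) among all 5637 genes. The members' median coefficient was 0.52, and that of all genes was -0.01. The largest tested were RPS22A at 1.39, RPS2 at 1.19 and RPS20 at 1.10. With the Vip1D487A signs turned, 6 of 48 members stood above 0 and none below (median 0.29, beside 3.71% of all genes above and 4.77% below). Without these 2 swaps, where the term rests on the wild type KCl swap, 10 of 49 stood above 0 and none below (median 0.63, beside 1.0% above and 1.51% below). RPS22A was at 1.43 turned and at 1.69 without them. Calls said below to be kept or lost with a dye term are those with the deposited signs, and each that differed with the signs turned or these swaps left out is given beside it. In every group without a dye swap, dye and mutant or treatment cannot be told apart. Nor can dye be told apart from slide in the others. The wild type KCl swap was alone on its slide, and the 2 Vip1D487A swaps were the only arrays on theirs. A call kept or lost with a dye term was therefore not tested apart from a shift of these slides.

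RPS12, which encodes a protein of the subunit's head, differed in sign between the dye swaps, as deposited, and nearly all other arrays. Its log2 ratio was above 0 on 38 of the 39 arrays that were not dye-swapped and gave it a value, whatever the strain or stress, with a lowest of -2.62, a median of 1.53 and a highest of 4.60. The 1 array below 0 was wild type with rapamycin. On the 3 dye swaps, with the deposited signs, RPS12 was -2.61, -1.23 and -0.45. RPS22A, RPS20, RPS2, RPS29B and RPS31 were likewise above 0 on most arrays not dye-swapped, on 40 of 44, 42 of 45, 41 of 44, 43 of 46 and 39 of 46. At the other end stood RPS18A, above 0 on 15 of 50.

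**Figure D2:**
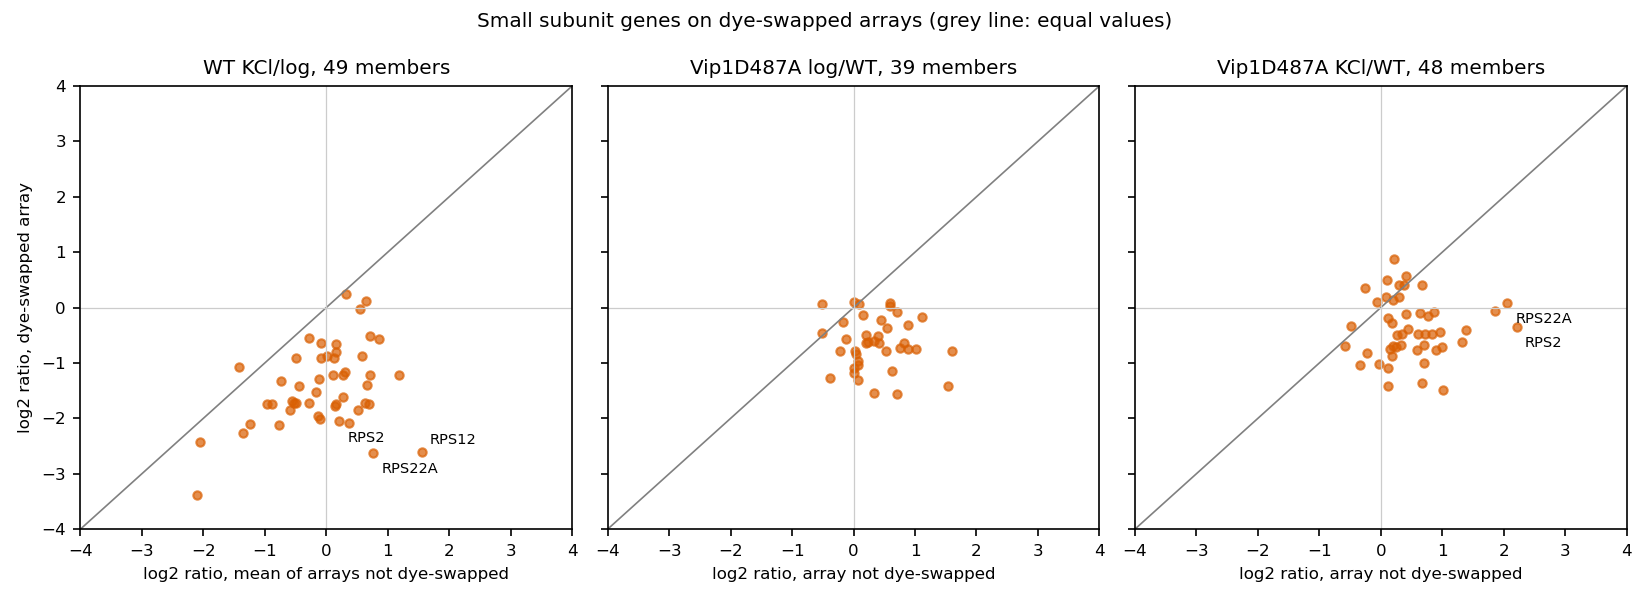
Log2 ratio of each member on the dye-swapped array against its mean on the other arrays of the same group, for the 3 groups that hold a swap; the diagonal marks equal values. Signs are as deposited, and those of the Vip1D487A swaps are not settled. In wild type KCl 48 of 49 members lie below the diagonal.

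In wild type cells after KCl, set against untreated wild type, 15 of 49 members fell and none rose. This is 30.6% of the members, and 31.3% of all 5863 genes tested fell and 29.6% rose, so the share that fell was near the background while the share that rose was below it. The members' median was -0.45 (SD 0.88 over the 3 arrays' medians) and that of all genes -0.02, with 43 members below 0. The falls were unequal between members and between paralogs.

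RPS26B encodes a copy of the protein that lines the exit of the messenger RNA channel. It had log2 ratios of -3.38, -2.07 and -2.15, low on all 3 arrays and lowest on the dye swap. The mean was -2.53 ± 0.73 (SD, n = 3), with a limma adjusted p of 1.3e-07. Its paralog RPS26A stood at -0.03, 0.03 and 1.07, above RPS26B on every array.

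RPS7B, for a protein that the ubiquitin ligase Not4 modifies, was nearly equal on the 3 arrays at -2.43, -2.08 and -2.02. Its mean of -2.18 ± 0.22 (SD, n = 3) had a limma adjusted p of 6.6e-11. RPS7A was at -1.17, 0.13 and 0.49.

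RPS21A, whose protein binds that of RPS0, was at -2.26, -1.25 and -1.45 (mean -1.65, limma adjusted p = 0.00029). RPS24B was at -2.10, -1.22 and -1.25 (mean -1.52, limma adjusted p = 1.6e-06). RPS29A, for a zinc-binding protein of the head, was at -1.08, -1.91 and -0.93 (mean -1.31, limma adjusted p = 0.014). All 3 genes were below 0 on all 3 arrays.

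Among the other members that fell were RPS0A, RPS1A, RPS3, RPS8B, RPS10A, RPS16B, RPS17B, RPS18B and RPS19A, with means between -0.73 and -1.22. At the upper end RPS30A (0.11, 0.46 and 0.84), RPS20 (-1.21, 0.91 and 1.46), RPS15 (-0.56, 0.70 and 1.01), RPS26A and RPS25A (-0.52, 0.57 and 0.85) did not pass. For RPS20, RPS15 and RPS25A the dye swap lay below 0 and the other 2 arrays above it.

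All 15 calls were kept when a dye term was fitted, which gave 21 members that fell and none that rose. Without the dye swap, 45 members could be tested, of which 7 fell and 1 rose, and the members' median was 0.02 in place of -0.45. So the median of the group rests on 1 array, while the 5 lowest members were below 0 on each of the arrays.

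Within an array, the difference between paralogs cancels any shift that the whole array shares. In wild type KCl 14 of 21 pairs differed (8 with A higher, 6 with B higher), beside 61.7% of the 60 such pairs on the array, which are nearly all ribosomal protein genes. The RPS26 pair differed most, with A minus B at 2.89 (limma adjusted p = 6.2e-08), followed by RPS7 at 1.99 (limma adjusted p = 2.9e-07). RPS21 ran the other way at -1.43, and RPS24 was at 1.16 and RPS18 at 0.90. All 5 of these pairs kept their call with a dye term.

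**Figure D3:**
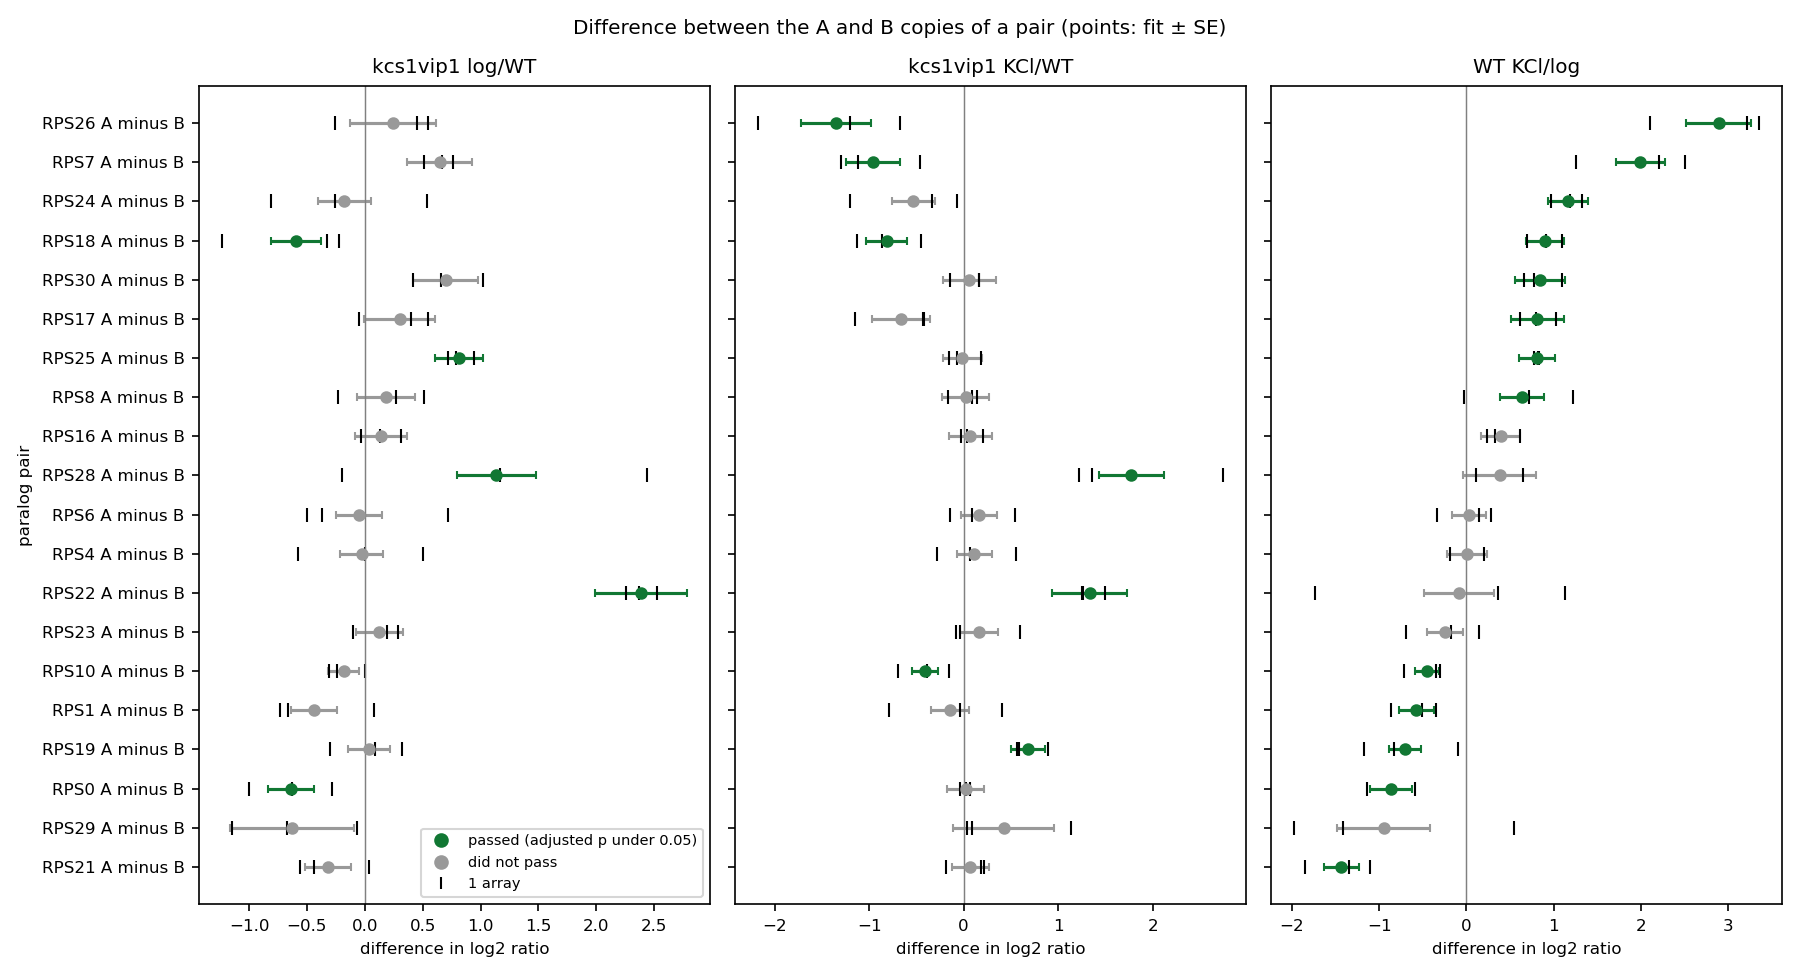
Difference between paralogs, A minus B in log2 ratio, for 20 of the 21 pairs in kcs1/vip1 log, kcs1/vip1 KCl and wild type KCl. Points are fitted differences ± SE, green where the pair passed and grey where it did not, and ticks are single arrays. In wild type KCl the RPS26 pair is at 2.89 and the RPS21 pair at -1.43.

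In the same arrays, genes of other roles in the small subunit fell further. Of 22 assembly factors of the subunit measured, 21 fell and none rose, with a median of -3.58. Among 11 proteins that bind the finished subunit (initiation factors, Asc1 and Stm1) 9 fell, median -1.71. Of 80 large subunit ribosomal protein genes 24 fell and 1 rose, median -0.55, close to the small subunit genes. Among 12 regulators of ribosomal protein genes 3 rose and 4 fell, and among 15 mitochondrial small subunit genes 5 fell and none rose.

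H2O2 in wild type left most members without a call. Of 49 tested 2 rose and 2 fell, 4.08% in each direction, below the 22% of all genes that rose and the 21.4% that fell. The median was 0.05, and the array medians were -0.21 and 0.36. RPS20, for a head protein, was at 0.96 and 1.41 and RPS15, also of the head, at 0.80 and 1.32, above 0 on both arrays. Their means were 1.19 (limma adjusted p = 0.037) and 1.06 (limma adjusted p = 0.036), but both calls were lost with a dye term, where the differences were 0.09 and 0.24. RPS7B fell, at -1.51 and -0.86 (mean -1.19, limma adjusted p = 0.00032), and so did RPS24B, at -1.11 and -0.84 (mean -0.98, limma adjusted p = 0.0069). These are 2 of the 5 lowest in KCl, and both calls were kept with a dye term.

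RPS29A was at -1.07 and -1.17 in H2O2 and did not pass (limma adjusted p = 0.10), nor did RPS12 at 1.53 and 1.73 (limma adjusted p = 0.052). RPS26B, the lowest in KCl, was at -0.83 and -0.18. Among paralogs 7 of 21 pairs differed, beside 40% of all pairs. A minus B was -1.80 for RPS29, 1.06 for RPS30, 0.95 for RPS7, -0.90 for RPS21 and 0.86 for RPS24. Of these pairs RPS21 alone kept its call with a dye term, and lost it without the Vip1D487A swaps (limma adjusted p = 0.099). RPS24 was lost (limma adjusted p = 0.069) but passed with the signs turned (0.0065). Among the assembly factors 19 of 22 fell, median -1.71. Of the bound proteins 5 of 11 fell, and of the regulators 7 of 12 fell and 1 rose. Of 80 large subunit genes 6 rose and 9 fell, and 5 of 15 mitochondrial small subunit genes rose.

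Heat and rapamycin were each measured on 1 array of wild type, so these differences have no replicate check. With rapamycin, set against untreated wild type, all 49 members were below 0 and 42 were at least 2-fold lower, with a median of -1.35. Of all genes 16.9% were at least 2-fold lower on that array and 28.2% at least 2-fold higher, and their median was 0.38. RPS28B was lowest at -3.16 and RPS0B next at -2.83, and RPS30A at -0.34 and RPS22B at -0.60 were highest. In heat 47 members were below 0 and 23 were at least 2-fold lower, beside 18.3% of all genes that were lower and 15.9% that were higher by that much, with a median of -0.88. RPS0B was lowest at -2.32, and RPS28B (0.94) and RPS12 (0.15) were the only members above 0. RPS28B, whose transcript is known to be degraded when its own protein is in excess, was therefore the lowest member with rapamycin and the highest in heat.

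The kcs1/vip1 double mutant lacks both inositol pyrophosphate synthases. In log growth 4 of its 49 members rose over wild type and 3 fell, 8.16% and 6.12%, below the 18.9% and 19% of all genes. The members' median was 0.13, with array medians of 0.89, -0.43 and -0.01. The first array was the highest of the 3 for RPS12 (2.79, 1.41 and 0.35), RPS22A (2.34, 0.87 and 0.93), RPS30A (2.77, -0.06 and 0.51) and RPS20 (1.92, 0.41 and 0.72). Their means were 1.52, 1.38, 1.07 and 1.02, with limma adjusted p of 0.031, 0.018, 0.047 and 0.033. In the fit with a dye term RPS12, RPS22A and RPS20 turned to -0.56, -0.01 and -0.08, and RPS30A was at 0.39 (limma adjusted p = 0.59). So none of the 4 kept its call, and none rose without the first log array.

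The members that fell were RPS22B at -0.18, -1.50 and -1.33 (mean -1.0, limma adjusted p = 0.0069), RPS18A at -0.01, -1.82 and -0.51 (mean -0.78, limma adjusted p = 0.019) and RPS7B at -0.40, -1.11 and -0.75 (mean -0.75, limma adjusted p = 0.0045). Each was below 0 on all 3 arrays, and all 3 calls were kept with a dye term, but RPS18A lost its call with the Vip1D487A signs turned (limma adjusted p = 0.17) or these swaps left out (0.057). Without the second log array no member fell. Of 21 pairs 5 differed, beside 23.3% of all pairs. A minus B was 2.38 for RPS22, 1.14 for RPS28, 0.82 for RPS25, -0.64 for RPS0 and -0.59 for RPS18. With a dye term RPS22 alone of these kept its call, at 1.12, and it lost it without the Vip1D487A swaps (1.14, limma adjusted p = 0.059). RPS28 (limma adjusted p = 0.17), RPS25 (0.18), RPS0 (0.17) and RPS18 (0.60) lost theirs, though RPS0 passed with the signs turned (0.018). Of the context lists, 7 of 22 assembly factors and 4 of 12 regulators fell and none rose. Large subunit genes split 4 up and 5 down of 80, 2 of 11 bound proteins fell, and 4 of 15 mitochondrial genes rose.

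With both strains in KCl, 17 of 49 members were higher in kcs1/vip1 than in wild type and none lower. This is 34.7% of the members, above the 24.8% of all genes that rose, and 25.6% of all genes fell. The median was 0.53, the array medians were 1.05, 0.57 and 0.25, and 45 members had a mean above 0. For 37 members the sign was the same on all 3 arrays, whose medians were all above 0. No share of all genes is given beside this count.

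RPS26B, the member lowest in wild type KCl, was at 2.10, 1.44 and 1.72 here, above 0 on every array, with a mean of 1.75 ± 0.33 (SD, n = 3) and a limma adjusted p of 0.00011. RPS29A was at 3.28, 1.17 and 1.03 (mean 1.83, limma adjusted p = 0.0013), with the first array far above the other 2. RPS7B was at 1.51, 0.75 and 0.66 (mean 0.97, limma adjusted p = 0.00026). RPS24B, which also fell in wild type KCl, had a mean of 0.86 (limma adjusted p = 0.0034).

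RPS12 (2.70, 2.14 and 1.37), RPS22A (1.95, 1.31 and 1.43) and RPS20 (2.25, 1.33 and 1.07) were also among the 5 highest, with means of 2.07, 1.56 and 1.55. They are the genes that were high on nearly every array not dye-swapped, and with a dye term their values here were -0.01, 0.18 and 0.45, none called. RPS29A and RPS26B kept their calls, at 1.53 and 1.16, and RPS26B lost it without the Vip1D487A swaps (1.12, limma adjusted p = 0.079). The dye term left 3 members that rose and 2 that fell, with a median of 0.04 in place of 0.53. With the Vip1D487A signs turned 6 rose and none fell (median 0.31), and without those swaps 1 rose and 1 fell (median -0.08). The first array also carried weight: without it 5 rose and none fell.

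The other members that rose were RPS29B, RPS31, RPS30A, RPS30B, RPS28A, RPS23A, RPS2, RPS19A, RPS10B and RPS3, at 0.72 to 1.40. RPS31 is made as a fusion with ubiquitin, and RPS23A encodes a protein of the decoding centre. The lowest, RPS28B, stood at -0.73, -0.17 and -0.95, below 0 on all 3 arrays, and did not pass (limma adjusted p = 0.15). RPS18A (-0.38) and RPS7A (0.01) did not pass either.

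Of 21 pairs 7 differed, beside 41.7% of all pairs. RPS28 was at 1.77, RPS26 at -1.35, RPS22 at 1.33, RPS7 at -0.96, RPS18 at -0.81 and RPS19 at 0.68. Fitted with a dye term, RPS28 stayed at 1.75 and kept its call, while RPS22 was at 0.07 (limma adjusted p = 0.92). RPS26 lost its call (-1.15, limma adjusted p = 0.051, and 0.072 with the Vip1D487A signs turned). RPS18 lost its call too (limma adjusted p = 0.16) but passed with those signs turned (0.044). RPS7 kept its call with a dye term (-1.28) and lost it without the first KCl array (-0.79, limma adjusted p = 0.081). For RPS26 and RPS7, the paralog that was lower in wild type KCl was the higher one in the mutant over wild type in KCl.

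**Figure D4:**
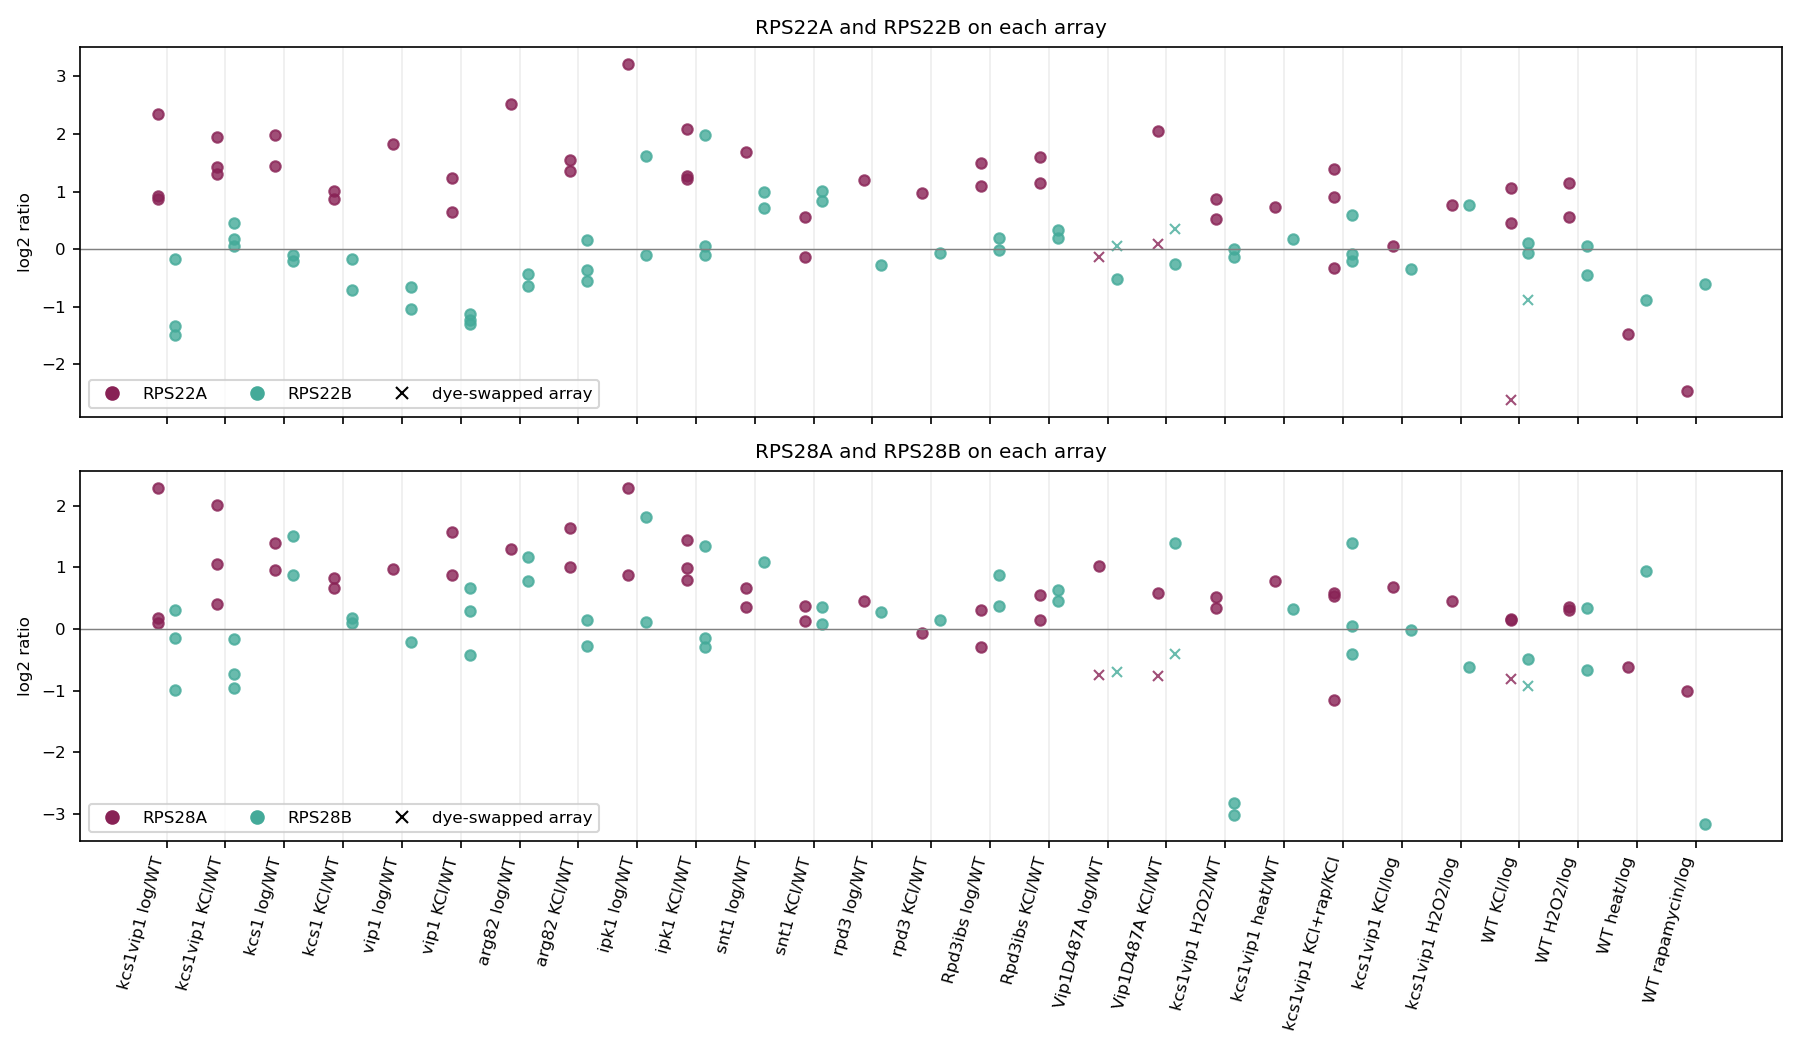
Log2 ratio of both members of the RPS22 and RPS28 pairs on each array, by group, with crosses for dye swaps. RPS22A is above 0 on 40 of 44 arrays that were not dye-swapped and RPS22B on 20 of 51; RPS28B is lowest with rapamycin in wild type (-3.16).

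Other lists moved in the same comparison. Assembly factors rose for 20 of 22 and fell for 1, with a median of 1.5, more than that of the members. Large subunit genes rose for 37 of 80, median 0.77, and bound proteins for 7 of 11, median 0.90. No gene of either list fell. Regulators rose for 1 and fell for 5 of 12, and 3 of 15 mitochondrial genes rose.

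Whether the kcs1/vip1 difference from wild type was itself different in KCl than in log growth was tested as a contrast. It was larger in KCl for 3 of 49 members and smaller for none, 6.12%, below the 13.4% of all genes, and 13.8% of all genes were smaller. RPS26B was at 2.10, 1.44 and 1.72 in KCl, against 1.16, -0.77 and -0.46 in log growth, a difference of 1.78 (limma adjusted p = 0.0062), and the groups did not overlap. RPS7B was at 1.51, 0.75 and 0.66 in KCl, against -0.40, -1.11 and -0.75 in log growth, a difference of 1.73 (limma adjusted p = 3.0e-05) with every KCl array above every log array. RPS22B was at 0.46, 0.05 and 0.18 in KCl, against -0.18, -1.50 and -1.33 in log growth, a difference of 1.23 (limma adjusted p = 0.023), also without overlap. With slide as a fixed block RPS22B lost its call (1.17, limma adjusted p = 0.071), while RPS26B (1.60) and RPS7B (1.75) kept theirs. Without the first kcs1/vip1 KCl array RPS22B also lost it (1.12, limma adjusted p = 0.085), and RPS26B and RPS7B again kept theirs.

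RPS29A (1.55) and RPS21A (1.22) did not pass in this contrast, with limma adjusted p of 0.072 and 0.087, nor did RPS28B at the lower end (-0.34). The members' median difference was 0.36. On the 2 slides that held both conditions it was 0.02 and 0.91, so the 2 slides did not give the same shift. Without the first log array, 11 members passed, all larger in KCl. Among pairs 3 of 21 differed, beside 21.7% of all pairs, namely RPS7 at -1.61, RPS26 at -1.59 and RPS25 at -0.83. RPS25 lost its call without the first kcs1/vip1 KCl array (-0.80, limma adjusted p = 0.12). Assembly factors rose for 19 of 22, median 2.13, large subunit genes for 12 of 80 and bound proteins for 6 of 11, with none that fell. No regulator and no mitochondrial gene passed, of 12 and 15.

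On the 1 array of kcs1/vip1 in KCl over the same strain untreated, which has no replicate check, the members' median was -0.27, with 6 at least 2-fold lower and 3 at least 2-fold higher, beside 13.1% and 15.4% of all genes. RPS26B was lowest at -2.15, near its values of -2.07 and -2.15 on the wild type arrays that were not dye-swapped, and RPS18A was next at -1.40. RPS31 (1.53) and RPS12 (1.36) were highest. RPS7B was at -1.36 there and between -2.43 and -2.02 in wild type, and RPS22B was at -0.35 beside a wild type mean of -0.28. For RPS26B and RPS22B little of the difference given by the contrast was thus seen on this array of kcs1/vip1. On the array of that strain with H2O2 over untreated, 5 members were at least 2-fold higher and 1 at least 2-fold lower, beside 3.65% and 0.489% of all genes, with RPS12 at 1.63, RPS20 at 1.51, RPS29A at -1.51 and RPS28B at -0.61.

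Rapamycin added to KCl in kcs1/vip1, set against KCl alone, was measured on 3 arrays with member medians of -0.03, -0.65 and 0.65. Of 49 members 1 fell and none rose, 2.04%, beside 2.58% of all genes that fell and 2.48% that rose. The member that fell was RPS7B, at -0.54, -1.24 and -0.30, below 0 on all 3 arrays (mean -0.69, limma adjusted p = 0.043). RPS29A (-0.83, -2.33 and -0.73) had a lower mean but did not pass (limma adjusted p = 0.094). RPS12 (1.92, 0.75 and 1.98) and RPS20 (1.40, 0.33 and 1.65) were highest and did not pass.

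At an unadjusted p below 0.05 there were 10 members in that comparison, with no share of all genes at that threshold to set beside them. Among pairs 6 of 21 differed, beside 23.3% of all pairs, among them RPS29 at -1.54, RPS30 at 0.81, RPS18 at -0.79, RPS0 at -0.62 and RPS19 at -0.61. None of the 21 passed with a dye term. Of the lists, 9 of 80 large subunit genes rose and 4 fell, and 4 of 22 assembly factors fell. Of the rest, 1 regulator of 12, 1 bound protein of 11 and 1 mitochondrial gene of 15 fell.

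Rapamycin in wild type without KCl, the single array described above, had all members below 0. The 2 settings differ in strain, in KCl and in the RNA they were set against, so no difference between them was tested.

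**Figure D5:**
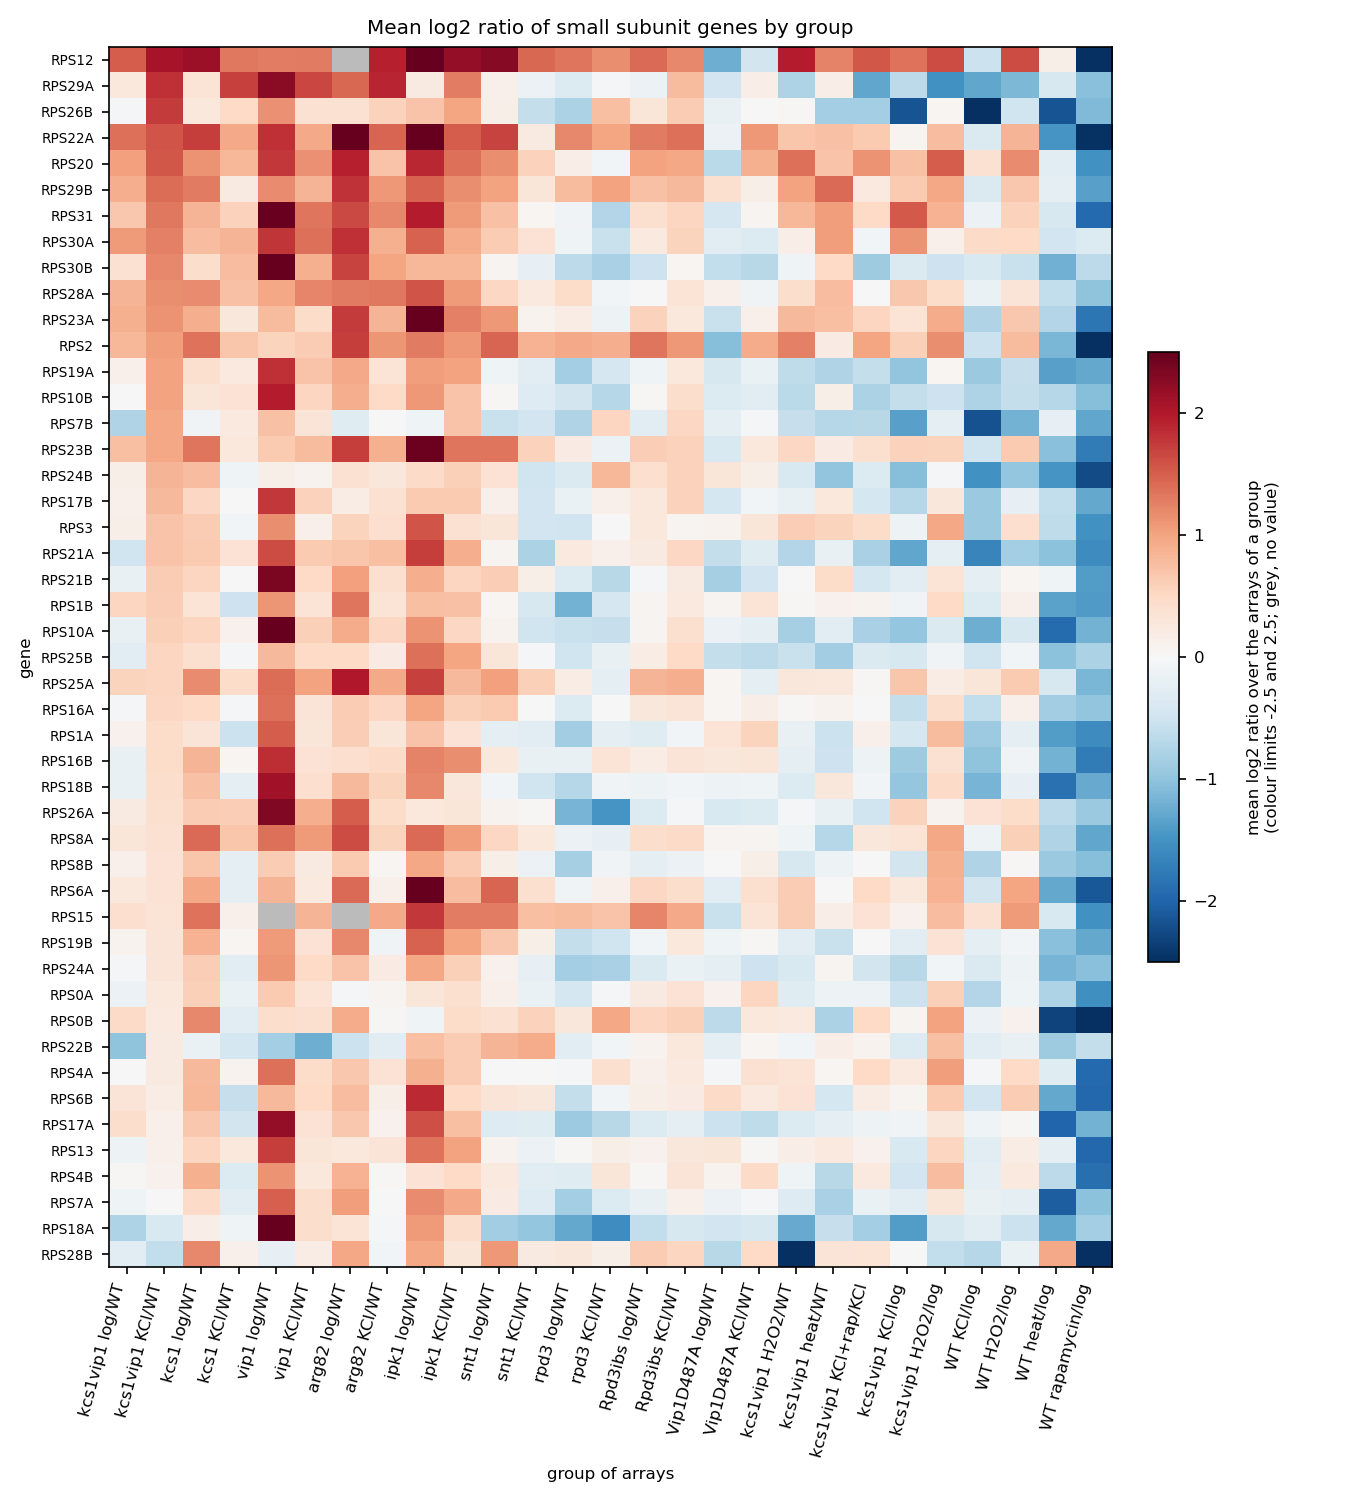
Mean log2 ratio of 47 of the 49 members (rows) in each group of arrays (columns). Red is above 0, blue below and grey no value. The wild type rapamycin and heat columns have medians of -1.35 and -0.88, and the vip1 log column 1.78 over its 20 tested members.

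Of the other inositol kinase mutants, vip1 in log growth had the highest median, 1.78, with array medians of 2.41 and 1.12. Only 20 members could be tested, because the first array lies on the slide with few member values, and 17 of them rose and none fell. That is 85% of those tested, beside 9.12% of all genes that rose and 9.97% that fell. RPS30B was at 3.64 and 2.67 (mean 3.16, limma adjusted p = 0.00026) and RPS10A, for a protein of the beak, at 3.34 and 2.25 (mean 2.80, limma adjusted p = 6.2e-05), each far above 0 on both arrays. RPS22B, at -0.66 and -1.04, was the only tested member below 0 and did not pass (limma adjusted p = 0.087).

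On the second vip1 log array the 20 members with a value on the first had a median of 1.14 and the 28 without one 1.12, so members with a value on both arrays did not stand apart there. Without the slide with few values 1 array was left, on which the median of 48 members was 1.12. None of the 17 rises therefore has a replicate check apart from that slide. Under the dye term 11 of the 17 kept their call and none fell, with 15 when the Vip1D487A signs were turned and 8 without those swaps. Large subunit genes rose for 37 of 47, median 1.85.

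With both strains in KCl, vip1 had array medians of 0.62, 0.42 and 0.55, and of 49 members 2 rose and 1 fell, 4.08% and 2.04%, beside 4.63% and 4.77% of all genes. The member that fell was RPS22B, at -1.23, -1.31 and -1.12, close together on the 3 arrays (mean -1.22 ± 0.10, SD, n = 3; limma adjusted p = 0.0075). Under the dye term it kept its value but not its call (limma adjusted p = 0.081). RPS29A was at 1.80, 1.95 and 1.26 (mean 1.67, limma adjusted p = 0.019) and RPS30A at 1.93, 1.20 and 1.02 (mean 1.38, limma adjusted p = 0.038). Neither passed with a dye term, under which no member was called, and none was called without the slide with few values.

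The contrast of kcs1/vip1 with vip1, both in KCl, was larger for 1 of 49 members, RPS22B, beside 9.12% of all genes that were larger and 6.74% that were smaller. RPS22B was at 0.46, 0.05 and 0.18 in kcs1/vip1, against -1.23, -1.31 and -1.12 in vip1, a difference of 1.45 (limma adjusted p = 0.013) with no overlap. The call was lost with slide as a fixed block (1.10, limma adjusted p = 0.22), without the slide with few values (limma adjusted p = 0.061) and without the first kcs1/vip1 KCl array (1.34, limma adjusted p = 0.056). Against kcs1 in KCl no member passed, with 5 at an unadjusted p below 0.05, beside 15.3% of all genes that passed in either direction. The ratio of vip1 over wild type was lower in KCl than in log growth for 6 of 20 members. This is 30%, beside 2.99% of all genes that were lower and 2.69% that were higher. The 6 included RPS30B (-2.27), RPS10A (-2.20), RPS21B (-1.87), RPS18B (-1.68) and RPS16B (-1.48). Each ratio is against wild type in the same condition, so a change within vip1 itself was not measured. The median difference was -1.10, and on the 2 slides with both conditions -1.59 over 20 members and -0.72 over 48.

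In ipk1, 18 of 39 members rose in log growth and 17 of 49 in KCl and none fell, 46.2% and 34.7%, beside 12.6% and 11.4% of all genes that rose and 12.3% and 12.4% that fell. The array medians were 0.69 and 1.64 in log growth and 0.31, 1.51 and 0.55 in KCl, and the higher one in each is an array labelled ipk1 that correlated poorly with the others. Without those arrays no member of 39 was called in log growth, where 1 array was left and was assumed to vary like the other groups, and 1 of 48 in KCl. With a dye term none was called in either, and with the Vip1D487A signs turned 2 in log growth. RPS23B, for a protein of the decoding centre, was at 1.41 and 3.50 in log growth (mean 2.46, limma adjusted p = 0.0037), and RPS20 at 1.49 and 2.26 (mean 1.88, limma adjusted p = 0.0056). In KCl RPS22A was at 1.27, 2.08 and 1.22 (mean 1.52, limma adjusted p = 0.017), and RPS12 had values on 2 arrays, 3.41 and 0.99.

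In arg82, array medians were 0.76 and 0.77 in log growth and 0.49, 0.21 and 0.48 in KCl. In log growth 17 members could be tested and 1 rose (5.88%, beside 7.63% of all genes that rose and 9.58% that fell), RPS30B, at 1.71 and 1.67 (limma adjusted p = 0.028). With a dye term this call was lost (1.32, limma adjusted p = 0.19), but not with the Vip1D487A signs turned (2.03, 0.041). In KCl 4 of 48 rose and none fell (8.33%, beside 13.9% of all genes that rose and 18% that fell), with RPS29A at 1.95, 2.32 and 1.47 (mean 1.91, limma adjusted p = 0.0020). RPS12 at 2.15 and 1.75, RPS22A at a mean of 1.46 and RPS28A at 1.32 were the others, each with values on 2 arrays. With a dye term 1 of the 4 kept its call, and RPS12 turned to -0.13.

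In kcs1, no member passed in either condition, beside 0.44% of all genes called in log growth and 7.97% in KCl. At an unadjusted p below 0.05 there were 18 members in log growth and 1 in KCl. The shares of all genes just given are of adjusted calls and are no background for these 2 counts. RPS12 was highest in log growth at 2.23 and 2.04, and RPS29A in KCl at 1.92 and 1.48 (limma adjusted p = 0.053). The medians were 0.68 in log growth and 0.09 in KCl. Without the second array labelled kcs1 the log median was 0.58.

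RPS29A had means of 1.83, 1.91, 1.67 and 1.70 in the KCl groups of kcs1/vip1, arg82, vip1 and kcs1, and 1.27 in that of ipk1. All 5 groups are set against wild type in KCl, where RPS29A fell to -1.31 relative to untreated wild type, and it passed in 4 of the 5. With a dye term it kept its call in kcs1/vip1 and arg82 but not in vip1 or ipk1. The 5 groups share the kind of RNA they were set against and the dye. Set against the same kind of RNA, RPS29A was at 0.79 in Rpd3ibs and -0.15 in snt1, neither called. On the 1 rpd3 array in KCl it was at -0.02. In Vip1D487A in KCl it was at 0.83 and, on the dye swap of unsettled sign, at -0.48, and was not called. Against untreated wild type in log growth it was at 2.27 in vip1, where it rose. It was at 1.44 in arg82, 0.34 in kcs1, 0.27 in kcs1/vip1 and 0.22 in ipk1 in log growth, none called. Why it was high was not tested.

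On the arrays labelled kcs1/vip1 over wild type in H2O2, 2 of 49 members fell and none rose, 4.08%, beside 1.68% of all genes that fell and 3.34% that rose. RPS28B was at -2.82 and -3.01, nearly equal and far below every other member (mean -2.92 ± 0.13, SD, n = 2; limma adjusted p = 5.5e-05). RPS28A was at 0.34 and 0.52 on the same arrays. RPS18A was at -1.44 and -1.08 (mean -1.26, limma adjusted p = 0.016). Both calls were kept with a dye term, and that of RPS28B also with the other signs of the swaps, while that of RPS18A was lost (limma adjusted p = 0.13 turned, 0.061 left out). Both arrays go against their label by LEU2 but lack values for KCS1 and VIP1 as other arrays of that strain do, and no array is left without them. On the single array labelled kcs1/vip1 over wild type in heat, which goes against its label too, RPS29B (1.42) and RPS12 (1.24) were highest, and RPS24B was at -0.99.

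In the histone deacetylase mutants few members moved. In snt1 none passed in log growth (34 tested, 10.3% of all genes called) or in KCl (48 tested, 7.87%), with 3 and 2 at an unadjusted p below 0.05. Among the members tested RPS22B was highest in both, at 0.71 and 0.99 in log growth and 0.84 and 1.01 in KCl (limma adjusted p = 0.12 and 0.099). Among them RPS18A was lowest in both, at -0.86 on both log arrays and -1.02 and -0.92 in KCl (limma adjusted p = 0.079 and 0.057).

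In Rpd3ibs 2 of 49 rose in log growth and none fell (4.08%, beside 10.3% of all genes that rose and 10.1% that fell), RPS2 at 0.95 and 1.72 (limma adjusted p = 0.034) and RPS15 at 1.19 and 1.24 (limma adjusted p = 0.034). RPS2 encodes a protein at the entry of the messenger RNA channel. Neither passed with a dye term. In KCl none passed, beside 31.9% of all genes, and 5 were at an unadjusted p below 0.05, while 18 of 22 assembly factors rose and 1 fell, with a median of 1.61. For rpd3, with 1 array in each condition and no replicate check, the member medians were -0.34 in log growth and -0.07 in KCl. RPS18A was lowest on both arrays, at -1.28 and -1.56, and RPS12 highest, at 1.33 and 1.16.

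In Vip1D487A no member passed in log growth (39 tested, 0.0359% of all genes called) or in KCl (48 tested, 2.15%), with 0 and 1 at an unadjusted p below 0.05. The array medians were 0.33 and -0.65 in log growth and 0.37 and -0.45 in KCl, with the dye swap the lower in each. With the sign of the swaps turned, the members' medians were 0.46 and 0.45. No direction is drawn from these groups.

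The other KCl minus log contrasts of mutant over wild type gave no member that passed. For arg82 17 members were tested (3.82% of all genes passed in either direction, none of the members at an unadjusted p below 0.05, median -0.29) and for Rpd3ibs 49 (6.86%, 1 member unadjusted, median 0.15). In ipk1 39 were tested (0.018%, 2 unadjusted, median -0.34), and in kcs1 49, snt1 34 and Vip1D487A 39, where 0% of all genes passed and 5, 1 and 0 members were at an unadjusted p below 0.05. The median differences of kcs1, snt1 and Vip1D487A were -0.72, -0.31 and 0.09.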

How the data were processed

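The deposited table holds 1 log2 ratio per probe and array, made by the authors. Their base was read as 2 from the values, which are signed, centre near 0 and reach 15.58 in size. The normalization, the exact direction of the ratio and the build are not given in the sources used here, and intensities were not used, so depth is replaced by the number of values per array (5216 to 6206). Of 6317 entries 61 control spots were left out. Probes were named from the platform annotation (4075 with 1 symbol, none with several, 2181 without), symbols were updated through the RefSeq gene table, used for names only, and probes of a gene were averaged. In 3 columns with more decimals, 407 exact zeros were set missing, none of them in members. These columns were the 2 Vip1D487A dye swaps and the wild type rapamycin array. Whether their ratios were made in another way than the rest was not tested.

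A group-means model over all 54 assigned arrays was estimated by limma (version 3.58.1, under R version 4.3.3; 27 residual degrees of freedom, 4.63 prior degrees of freedom, prior SD 0.37), with Benjamini-Hochberg adjustment within a comparison. Paralog differences were fitted likewise over all 60 pairs. The model was tested on simulated data. The members and the gene lists were chosen with earlier results of these data known. Lists were counted, with no test of their own. They were large subunit genes, regulators of ribosomal protein genes, assembly factors of the small subunit, proteins bound to it and mitochondrial small subunit genes. Genes named are the 5 highest and 5 lowest members in the 6 main comparisons and the 2 highest and 2 lowest elsewhere. Up to 6 pairs with the largest difference that passed and the 3 members with fewest values are named too. The values of 2 members, which form 1 pair, enter all counts and medians but are not reported here. Further genes, such as those that passed, were named after their values were seen.

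Alternatives were centring and scaling of arrays, only genes on every array, each probe apart, slide as a random or fixed block, robust moderation, a dye term, turned signs of the dye swaps, and each array left out. Those added after the data were seen turned or left out the Vip1D487A dye swaps under the dye term, left out the dye swaps, the slide with fewest member values or the arrays against their labels, or kept exact zeros. The channel labels of 1 array name the same RNA in both channels, while its title sets kcs1/vip1 with KCl against kcs1/vip1. It therefore entered no comparison. Python 3.11.15 with pandas 2.3.3, numpy 2.4.6 and matplotlib 3.10.9 served for the tables and plots.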

Additional observations from a re-analysis of the deposited data

Results flagged for a closer look

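By the contrast of the model, the effect of kcs1/vip1 over wild type was larger in KCl than in log growth for 3 members. These were RPS26B, RPS7B and RPS22B, and RPS22B lost its call with slide as a fixed block or without the first kcs1/vip1 KCl array. On the 1 array of kcs1/vip1 in KCl over the same strain untreated, RPS26B was at -2.15, RPS22B at -0.35 and RPS7B at -1.36. Their wild type KCl means were -2.53, -0.28 and -2.18, so little of the difference was seen there for RPS26B and RPS22B. That array has no replicate check. By the contrast, the difference between paralogs changed between KCl and log growth for 3 pairs, RPS7, RPS26 and RPS25, beside 21.7% of all pairs. RPS25 lost its call without the first kcs1/vip1 KCl array. Between kcs1/vip1 and vip1, both over wild type in KCl, 1 member differed, RPS22B, and this call was lost with slide as a fixed block, without the slide with few member values and without the first kcs1/vip1 KCl array. In vip1 over wild type, 6 members were lower in KCl than in log growth, all of them read on arrays of the slide with few member values, and none of these 6 was called without that slide.

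The array that the labels put in no group names kcs1/vip1 in KCl in both channels. The members on this array had a median of -0.23, and 8 were at least 2-fold lower or higher, of which 7 were lower and 1 higher. Of all genes 11.5% were at least 2-fold lower and 11.9% at least 2-fold higher. RPS26B (-1.56) and RPS29A (-1.42) were lowest, and RPS12 (1.17) and RPS20 (0.98) highest. RPS7B was at -0.79 and RPS22B at -0.17.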

How the results depend on the processing

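The deposited ratios give no signal over background, so what depth limits could not be measured. No paired analysis was possible by replicate number, because these numbers come only from accession order. Log and KCl arrays of a mutant that share a slide were compared within the slide, and the contrasts were fitted with slide as a fixed block, which could not be fitted for ratios against 0. Causes were not tested.

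Members called, in the order wild type KCl, wild type H2O2, kcs1/vip1 log, kcs1/vip1 KCl, the KCl minus log contrast and rapamycin in KCl, were 15, 4, 7, 17, 3 and 1 as reported. Leaving out each array gave 8 to 17, 0 to 2, 3 to 5, 5 to 20, 1 to 11 and 0 to 2. Scaling arrays to the same spread gave 4, 1, 3, 7, no large change for the contrast, and 15 for rapamycin. Of these 15, 8 rose and 7 fell, and 1 was also called as reported. With only genes on every array 14 members were tested in place of 49, so these counts are not on the same footing. Of the 14, 9, 1, 2 and 6 were called in the first 4. The dye term gave 5 in kcs1/vip1 KCl and 3 for rapamycin, with the Vip1D487A signs turned 20, 2, 3, 6, 3 and 0, and without these swaps 23, 3, 6, 2, 3 and 1. Turned signs gave 3 in wild type KCl and 0 for the contrast and for rapamycin. The 3 in wild type KCl all rose, and none of them was among the 15 reported. This setting also turned the wild type KCl swap, whose deposited sign ran the same way as that of the other arrays of its group. Slide as a random block gave 2 in H2O2, and leaving out the dye swaps gave 8 in H2O2 and 4 for rapamycin. Without the arrays against their labels the contrast had 5 and rapamycin 3. Rapamycin had 0 after centring and 0 without the slide with fewest values.

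Paralog pairs that differed were 14, 7, 5, 7, 3 and 6 as reported. Leaving out each array gave 10 to 12, 1 to 1, 3 to 4, 4 to 5, 1 to 3 and 0 to 2. Scaling gave 4, 1, 1, 0, 0 and 11, and turned signs 3, 0, 3, 4, 0 and 0. Genes on every array, where fewer pairs could be tested, gave 2, 1, 0, 1, 0 and 0. The dye term gave 1, 1, 4, 5 and 0 from H2O2 on, with the Vip1D487A signs turned 14, 2, 2, 5, 5 and 0, and without these swaps 13, 0, 0, 4, 5 and 0. The contrast had 6 with slide as a random or fixed block and 5 without the dye swaps or without the arrays against their labels. Rapamycin had 3 with slide as a random block.

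With a dye term RPS12 turned to -0.56 in kcs1/vip1 log, -0.01 in kcs1/vip1 KCl and -0.13 in arg82 KCl, RPS22A to -0.0079 and RPS20 to -0.0802 in kcs1/vip1 log. RPS12 had no value on the Vip1D487A arrays that were not dye-swapped, so the signs of those swaps could not change these values. Its dye term rests on wild type KCl, at -2.61 on the swap and 1.55 on the 1 other array with a value. With the Vip1D487A signs turned as well RPS22A was at -0.0464 and RPS20 at -0.0522. Without these 2 swaps RPS22A was at -0.31 in kcs1/vip1 log, -0.1267 in kcs1/vip1 KCl and -0.1667 in ipk1 KCl, and RPS20 at -0.1808 in kcs1/vip1 log and -0.0125 in H2O2.

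Medians moved to -0.45 in H2O2 and 0.0356 in kcs1/vip1 KCl with the dye term. With genes on every array they moved to -0.53 in H2O2, -0.65 (-0.645) for rapamycin, 0.67 in arg82 log, 0.40 in kcs1 log, -0.57 in kcs1/vip1 H2O2, -0.25 (-0.245) in snt1 KCl and -0.28 for kcs1 KCl minus log. Scaling moved arg82 log to 0.67, vip1 KCl to 0.65 and kcs1 log to 0.93, and centring moved arg82 log to 0.67. Without the slide with fewest values arg82 log was 0.77 and arg82 KCl minus log -0.57. Leaving out each array gave -0.48 to 0.0025 for arg82 KCl minus log, 0.76 to 0.77 in arg82 log, 0.09 to 0.27 in Rpd3ibs log, -0.12 to 0.005 in snt1 KCl, 0.155 to 0.30 in snt1 log and -0.53 to -0.17 for snt1 KCl minus log.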
